A study of Glycyrrhiza uralensis with 6 samples.

Results

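A set of 142 unigenes was counted in every library titled control and in none of the libraries titled MeJA, out of 116907 unigenes listed in 6 RNA-Seq libraries of suspended licorice cells (Glycyrrhiza uralensis). These control-only unigenes were chosen by their counts in the same contrast that they describe: at least 10 counts in each of the 3 control libraries, 0 counts in each of the 3 MeJA libraries, and a mean below 1000 CPM (counts per 1000000 counts of the library) in both groups. The absence from the MeJA libraries is therefore the rule itself and is given as a description, without a test. The limit of 1000 CPM removed no unigene. The reverse rule, with the group titles exchanged, found 47 MeJA-only unigenes. Without MeJA 3 the numbers were 156 control-only and 181 MeJA-only unigenes, so the order of these counts turned without that library. Leaving out a library also loosens the rule, since its group has fewer libraries to meet it. The same loosening gave 204 control-only and 49 MeJA-only unigenes without MeJA 1, and 190 and 71 without MeJA 2. Without control 1 the numbers were 160 and 104, without control 2 231 and 57, and without control 3 175 and 110.

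The 3 MeJA libraries came from suspended cells that received 0.5 μL of methyl jasmonate solution per mL. The 3 control libraries came from suspended cells that received 0.4 μL of absolute ethanol per mL. The study's treatment list names a methyl jasmonate solution, so the volume is not that of the pure compound. Both groups were harvested 9 h later. All cells descended from callus of aseptically grown seedlings that had been carried on solid medium before transfer to liquid medium, and the study's methods describe a single well-grown suspension line. Nothing states that libraries of a group came from separate cultures, so the p-values measure only the spread between these libraries. The sample titles set the groups, but the name inside each of the 6 files carries the letter of the other group. If the names inside the files are right, the 142 unigenes belong to the MeJA group and every direction is exchanged. The library totals bear on this. As a share of the sequenced reads listed for each library name, they lay between 40.1% and 40.8% when matched by the names inside the files, and between 33.5% and 48.8% when matched by title. On this measure the totals follow the names inside the files. The groups below are those of the titles.

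Methyl jasmonate is a volatile ester of the plant hormone jasmonic acid. In plants it is converted to jasmonic acid and then to an isoleucine conjugate, which binds the receptor COI1 and leads to the breakdown of JAZ repressors, releasing transcription factors that act on defence and secondary metabolism, including flavonoid synthesis. A unigene is a sequence assembled from the reads themselves, here without a genome, and stands for a transcript or a fragment of one. Unigenes that the assembler could not separate share a component number: c62149_g2 and c62149_g5 belong to component c62149. The files pair the identifiers with neither a gene name nor a sequence, so the members are described by level, length, spread and component, and no function is given to any of them. In RNA from a whole culture, fewer cells of a type and less RNA per cell cannot be told apart.

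Library totals were 17556951, 20639580 and 20304519 estimated counts in MeJA 1 to 3, against 20285413, 17041505 and 21670945 in control 1 to 3. Control 2 was the smallest library and so bore hardest on the minimum of 10 counts. A unigene at 0 in all 3 MeJA libraries is bounded at 0.0513 CPM, which is 3 counts over the 58501050 counts of these libraries. This bound covers counting error only, since fragments amplified by PCR are not independent molecules.

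Most control-only unigenes were weakly counted, and a few were not. Their mean level over the control libraries ranged from 0.545 to 29.1 CPM with a median of 1.18 CPM (quartiles 0.897 and 1.98). The other 19023 unigenes with at least 10 counts in each control library had a median of 8.86 CPM. By level, 49 members lay under 1 CPM, 58 between 1 and 2 CPM, 30 between 2 and 10 CPM and 5 above 10 CPM. The median count of a member was 31 in control 1, 17 in control 2 and 22 in control 3. The members together held 0.0403% of the counts of control 1, 0.0272% of control 2 and 0.0252% of control 3. The 5 strongest members made up 33.2%, 25.9% and 30.7% of those summed counts.

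Had the members been present in the MeJA libraries at their control CPM, between 31.9 and 1704 counts would have fallen on each of them over the 3 MeJA libraries together, with a median of 69.2. Against the bound for 0 counts, the control level was at least 10.6-fold higher for the weakest member and at least 568-fold higher for the strongest. The median of these lower bounds was 23.1-fold. The bounds follow the control level, because the MeJA side is the same for every member.

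Unigene c4369_g1 was the strongest member. It had 0 counts in MeJA 1, 2 and 3, against 882, 346 and 511 in control 1, 2 and 3, a mean of 29.1 ± 12.5 CPM in control (SD, n = 3). The 3 control libraries lay far above all 3 MeJA libraries, and control 1 stood above the other controls. Unigene c57414_g1 had 0 counts in each MeJA library, against 792, 377 and 492 in control 1 to 3, or 28.0 ± 9.61 CPM in control (SD, n = 3). The order of the control libraries was the same, with control 1 highest and control 2 lowest. The recovered length of c57414_g1 was 515 bases, and its bound was at least 545-fold.

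The following 3 members lay between 10 and 15 CPM. Unigene c84477_g1 was counted 0 times in each MeJA library, against 400, 180 and 257 times in control 1 to 3, or 14.0 ± 4.95 CPM (SD, n = 3). Unigene c105063_g1 was also at 0 in each MeJA library, against 341, 160 and 218 counts in control 1 to 3, or 12.1 ± 4.10 CPM (SD, n = 3). For c103610_g1 the MeJA libraries were again at 0, against 304, 138 and 195 counts in control 1 to 3, or 10.7 ± 3.74 CPM (SD, n = 3). The order of the control libraries did not change over these members. In each of the 5 strongest members, control 2 held between 39.2% and 47.6% of the count of control 1, and control 3 between 57.9% and 64.3%.

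The remaining members of the upper 8 were less uniform. Unigene c53238_g1 had 0 counts in every MeJA library, against 169, 91 and 130 in control 1 to 3, or 6.56 ± 1.57 CPM (SD, n = 3). Unigene c78043_g1 had 0 counts in every MeJA library, against 200, 152 and 28, or 6.69 ± 4.70 CPM (SD, n = 3). In c78043_g1 it was control 3 that stood low. Unigene c115423_g1 had 0 counts in every MeJA library, against 19, 250 and 42, or 5.85 ± 7.66 CPM (SD, n = 3). This mean rests on control 2, and the SD exceeds the mean.

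**Figure D1:**
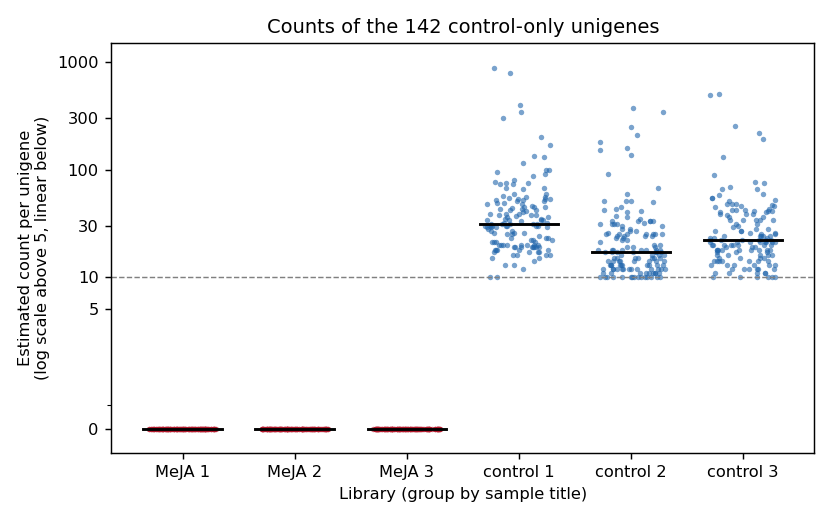
Estimated counts of the 142 control-only unigenes in each of the 6 libraries, with a point per unigene, a bar at the median, a dashed line at 10 counts and a count axis that is logarithmic above 5. All MeJA points lie at 0, and the control medians are 31, 17 and 22 counts in control 1 to 3, with the points of control 2 closest to the minimum.

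At the other end, the smallest summed control counts were those of c47557_g1 and c62881_g1. Unigene c47557_g1 had 0 counts in each MeJA library, against 10, 10 and 12 in control 1 to 3. Unigene c62881_g1 had 0 counts in each MeJA library, against 10, 11 and 13. Both sit at the edge of the rule. The lowest control count was exactly 10 in 22 members, at least 20 in 52 members and at least 50 in 11 members. Control 2 held the lowest count of 112 members, control 3 of 22 and control 1 of 8.

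Unigenes with similar values lay just outside both limits. Just outside the lower limit, 30 unigenes at 0 in every MeJA library had a lowest control count of 9. Among them c112737_g1 had 0 counts in each MeJA library, against 20, 9 and 17 in control 1 to 3, and c113699_g1 had 0, against 14, 9 and 13. Just outside the other limit were unigenes with a single MeJA count. Unigene c62412_g1 had 1, 0 and 0 counts in MeJA 1 to 3, against 254, 142 and 269 in control 1 to 3, which is 11.1 ± 2.39 CPM in control (SD, n = 3) and more than the level of all but 4 members. Unigene c74284_g1 had 0, 1 and 0 counts in MeJA, against 224, 73 and 145 in control. For c58166_g6 the counts were 0, 1 and 0 in MeJA, against 62, 133 and 179 in control. The single count was in MeJA 1 once and in MeJA 2 in the other cases.

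Of all 19165 unigenes with at least 10 counts in each control library, 142 had a summed MeJA count of 0, which is 0.741%. A summed MeJA count of 1 was found for 67, of 2 for 59 and of 3 for 52. A further 244 had between 4 and 10 summed MeJA counts, and 9029 had more than 1000. In the reverse direction, 0.223% of the 21112 unigenes with at least 10 counts in each MeJA library had 0 counts in all control libraries. The order of the underlying counts turned without MeJA 3, as given above.

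The share of unigenes at 0 in MeJA was highest where the control level was low. It was 4.64% under 1 CPM (49 of 1056 unigenes), 2.16% from 1 to 2 CPM (58 of 2682) and 0.746% from 2 to 5 CPM (27 of 3619). From 5 to 10 CPM it was 0.108% (3 of 2786), and from 10 to 30 CPM 0.126% (5 of 3963). None of the 4934 unigenes from 30 to 1000 CPM was at 0 in every MeJA library. The lowest class is bounded from below by the minimum of 10 counts, so it holds only unigenes close to that minimum.

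**Figure D2:**
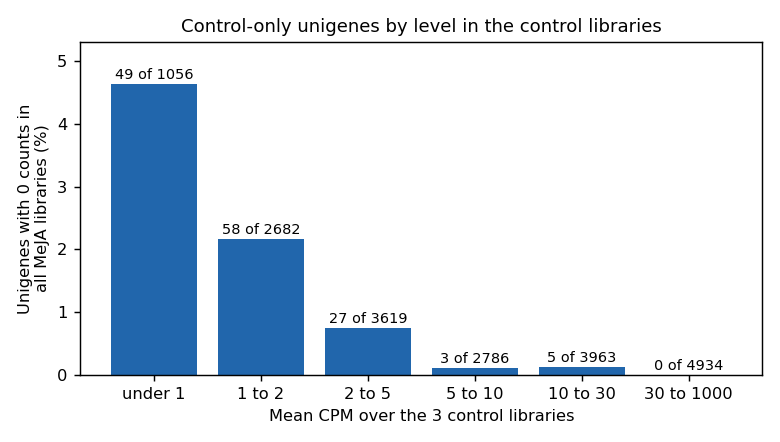
Percent of unigenes with 0 counts in all MeJA libraries, by class of mean CPM over the 3 control libraries, among unigenes with at least 10 counts in each control library. The bars stand at 4.64% under 1 CPM and 2.16% from 1 to 2 CPM, and no unigene from 30 to 1000 CPM was at 0 in MeJA.

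The edgeR quasi-likelihood test over all 24646 tested unigenes called 12.8% lower and 14.3% higher in MeJA at a Benjamini-Hochberg adjusted p under 0.05. Of the 142 members, 136 passed the filter on low counts, and the test called 136 lower in MeJA. That count follows from the rule, which used this contrast, and nothing is read from it.

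Control-only unigenes were short, as were other unigenes at a similar level. A length was recovered from the count and the FPKM (the count scaled by length and library total) of each member, and is the effective length, which is the number of positions at which a fragment can start, averaged by RSEM over the transcripts of a unigene. It had a median of 546 bases in the members (quartiles 327 and 885), against 1249 bases in the other unigenes with at least 10 counts in each control library (quartiles 708 and 1943). Under 200 bases there were 16 members, or 11.3% against 3.81% of the others, and from 200 to 500 bases 48 members, or 33.8% against 11.2%. From 500 to 1000 bases there were 53 members, which is 37.3% against 23.8% of the others. From 1000 to 2000 bases there were 24 members, or 16.9% against 37.7%, and above 2000 bases a single member, or 0.704% against 23.5%. The MeJA-only unigenes were also short, with a median of 497 bases (quartiles 262 and 803). Unigenes with 1 to 100 summed MeJA counts and at least 10 counts in each control library had class medians of 552 to 704 bases. Their levels were close to those of the members, with class medians of 1.06 to 1.42 CPM.

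Length and level are linked among all unigenes, so the lengths were compared within classes of level. Under 1 CPM the members had a median length of 504 bases, against 583 bases in the others. From 1 to 2 CPM the medians were 556 bases in the members and 708 bases in the others, and from 2 to 5 CPM 689 bases in the members and 974 bases in the others. From 5 to 10 CPM the 3 members had a median of 330 bases, against 1211 bases in the others. The 5 members above 10 CPM had a median of 148 bases, against 1474 bases in the others of that class. Members were the shorter set in each of these classes, by least where the counts were lowest.

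**Figure D3:**
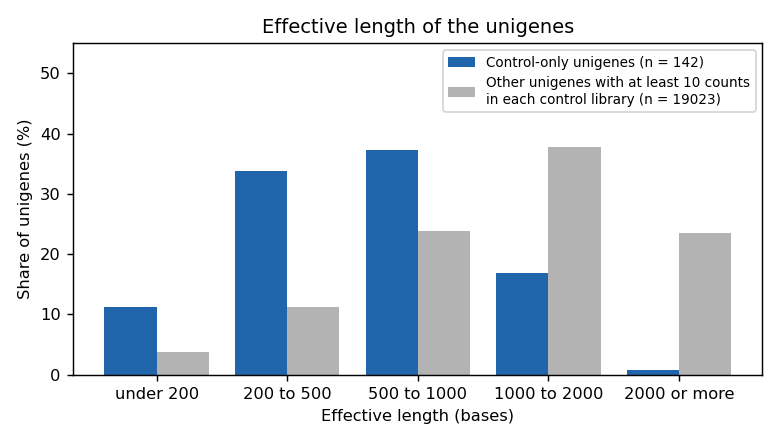
Percent of unigenes in each class of effective length (bases), for the control-only unigenes and for the other unigenes with at least 10 counts in each control library. The members are the larger share in the classes under 1000 bases, and the others in the classes above.

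The longest member was c38987_g1 at 2046 bases, with 0 counts in each MeJA library, against 44, 28 and 31 in control 1 to 3, or 1.75 ± 0.38 CPM (SD, n = 3). The following were c46890_g1 (1909 bases), c2838_g1 (1819 bases) and c115423_g1 (1712 bases). Unigene c46890_g1 had 0 counts in each MeJA library, against 34, 16 and 24 in control 1 to 3. Unigene c2838_g1 had 0 counts in each MeJA library, against 66, 27 and 41. Apart from c115423_g1, the long members were weakly counted, with control 1 highest.

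The shortest members had the largest FPKM for their counts. Unigene c5442_g1 had an effective length of 8.03 bases and 0 counts in each MeJA library, against 17, 211 and 19 in control 1 to 3, and its control FPKM was 109, 1458 and 109. The mean of 559 FPKM therefore rests on control 2. Unigene c105063_g1, at 15.7 bases, averaged 776 FPKM, the highest of any member. Unigene c4369_g1, with a higher CPM than c105063_g1, had 67.4 bases and 436 FPKM. Unigene c103610_g1, with nearly the same CPM as c105063_g1, had 1036 bases and 10.3 FPKM. The FPKM order of the 5 strongest members was the reverse of their order by length. Since length was calculated from count and FPKM, this order and the class medians below largely restate that calculation. Over the members the median FPKM was 15.2 under 200 bases, 3.25 from 200 to 500, 1.72 from 500 to 1000 and 1.06 from 1000 to 2000 bases, while the median CPM of these classes lay between 1.06 and 1.71.

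For 116 of the 142 members, the length recovered from the control libraries differed by less than 5% between the highest and the lowest library. For the other 26 it differed by more, and in 5 of them by at least 1.5-fold. The widest case, chosen after its values were seen, was c61954_g1, with 322 bases in control 1 against 943 in control 2 and 937 in control 3. Its counts were 0 in each MeJA library, against 68, 40 and 66 in control 1 to 3. A recovered length moves when counts are assigned to other transcripts of the same unigene, and the transcripts are not separate in the files.

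The members shared a profile over the control libraries that the rule did not ask for. Control 1 had the highest CPM in 117 of 142 members (82.4%), control 2 in 16 (11.3%) and control 3 in 9 (6.34%). Among the other unigenes with at least 10 counts in each control library, control 1 was highest in 47.5%. The median share of a member's summed control CPM was 43.3% in control 1, 28.0% in control 2 and 28.5% in control 3, against 36.4%, 29.9% and 31.2% in the others. These are descriptions with no test, since members of a library share its depth and preparation.

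Control 1 was 1.52-fold above control 2 (median CPM ratio, quartiles 1.24 and 1.87) and 1.55-fold above control 3 (quartiles 1.26 and 1.78). Control 2 and control 3 differed little at the median, with a ratio of 0.989 (quartiles 0.848 and 1.18). In the other unigenes control 1 was 1.22-fold above control 2 and 1.15-fold above control 3. With TMM library sizes, which rest on the bulk of unigenes in place of the file totals, control 1 was still highest in 97 members (68.3%), against 34.8% of the others. Control 1 thus stood above the other control libraries more often in the members under both scalings. The scaling moved the share itself by 14.1 percentage points, and the part of the preparation of control 1 in this profile was not tested.

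**Figure D4:**
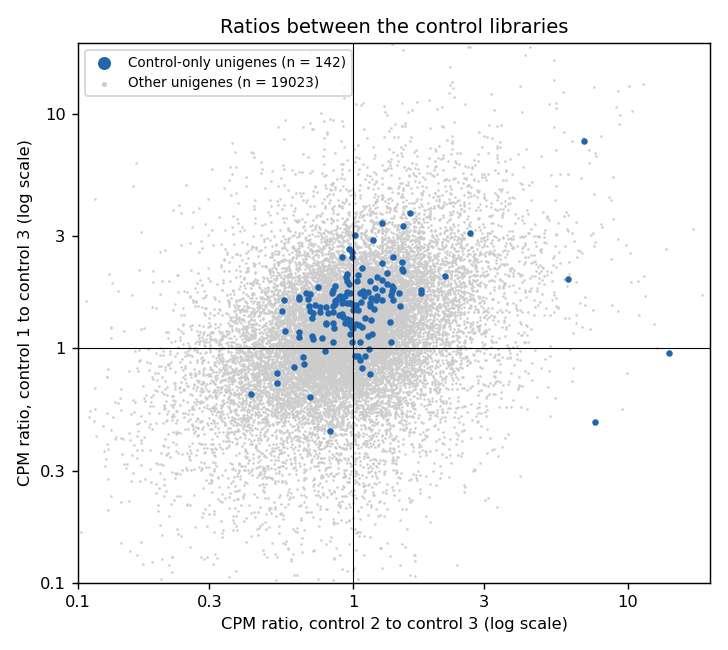
CPM ratio of control 1 to control 3 (vertical) against the ratio of control 2 to control 3 (horizontal), both on log axes, with a point per unigene for the control-only unigenes and the other unigenes with at least 10 counts in each control library. Most members lie above the line at 1 on the vertical axis, where their median is 1.55 against 1.15 for the others, and 95 other unigenes lie outside the plotted range.

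The median shares above lay within counting error of 123 of the 142 members (chi-square under 5.99 with 2 degrees of freedom, the 95% point), with a median chi-square of 1.57. They were taken from these same members, so this describes the members and does not test for a single profile. Among the 8 strongest members, c4369_g1 (chi-square 30.2), c57414_g1 (6.74), c78043_g1 (115) and c115423_g1 (542) lay outside it. Within it were c84477_g1 (4.55), c105063_g1 (2.68), c103610_g1 (3.21) and c53238_g1 (0.735). Equal CPM in the 3 control libraries lay within counting error of 85 members, and of the 57 outside it 52 were highest in control 1. Similar median shares, with a wider spread, were found in unigenes that were too weak to be members. Of 1279 unigenes at 0 in MeJA with at least 10 summed control counts but fewer than 10 in some control library, 783 (61.2%) were highest in control 1, with median shares of 43.7%, 26.4% and 27.1% and a median CV of 56.6%. That profile also lay within counting error of 123 members.

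The control 1 profile was also present just outside the limit on MeJA counts. All sets given here had at least 10 counts in each control library. Of the 178 unigenes with 1 to 3 summed MeJA counts, control 1 was highest in 134 (75.3%). Among the 2945 unigenes that the edgeR test called lower in MeJA and that were not members, control 1 was highest in 1089 (37.0%) and control 2 in 1245 (42.3%). Among the 2138 unigenes called higher in MeJA, control 1 was highest in 1309 (61.2%), with a median share of 41.0%. A lead of control 1 was thus not particular to the members, though it was less frequent among the unigenes called lower. These sets were not matched for level. Across levels, control 1 was highest in 35 of 49 members under 1 CPM, in 50 of 58 from 1 to 2 CPM, in 25 of 27 from 2 to 5 CPM and in 7 of 8 above 5 CPM. The lower figure in the weakest class goes with the widest counting error.

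Across the members, the coefficient of variation (CV) of CPM over the 3 control libraries had a median of 30.1% (quartiles 21.7 and 39.5), against 33.6% in the other unigenes. Without control 1 the members' median fell to 11.7%, while without control 2 it was 31.0% and without control 3 it was 30.2%. Most of the spread among the control libraries was therefore that of control 1 against the other controls. Over the members, log2 CPM correlated at r = 0.779 between control 1 and 2, at 0.873 between control 1 and 3 and at 0.807 between control 2 and 3, against 0.915, 0.924 and 0.941 in the other unigenes, whose levels span a wider range. These correlations are across unigenes, which are not independent replicates.

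The members with the lowest CV were picked for it among all members. Unigene c62022_g1 had 0 counts in each MeJA library, against 54, 45 and 54 in control 1 to 3, a CV of 3.57%. Unigene c42917_g1 had 0 counts in each MeJA library, against 45, 35 and 45, a CV of 4.21%. Unigene c58205_g1 had 0, against 13, 12 and 15, a CV of 4.95%. The control libraries stood at nearly the same CPM in these members, which is what they were picked for, and nothing is read from it.

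The members with the widest spread were dominated by control 2. Unigene c5442_g1 had a CV of 142% with counts of 17, 211 and 19 in control 1 to 3, against 0 in each MeJA library. The CV of c115423_g1 was 131%, with 250 of its counts in control 2. Unigene c46372_g1 had 0 counts in each MeJA library, against 26, 67 and 14, a CV of 89.2%. In these 3 members control 2 stood alone above the other control libraries. Of the 19 members outside counting error of the shared profile, 9 were highest in control 1, 5 in control 2 and 5 in control 3.

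The 142 members lay in 138 components, 4 of which held a pair of members. A component with no other unigene was the case for 110 members (77.5%). The remaining 32 members (22.5%) shared a component with other unigenes, against 35.9% of the other unigenes with at least 10 counts in each control library. Of all 138 components, 126 had no MeJA count in any of their unigenes. For the 110 with no other unigene this is the rule itself. Among the 28 components with several unigenes, 16 had no MeJA count, 4 had 1 to 3 and 8 had more. The 16 include c53534 and c61623, which held only members and so were at 0 by the rule. They also include c61044, whose other unigene was at 0 in every library.

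In 3 of the 4 pairs both members had their highest CPM in control 1. In component c62149, c62149_g5 had 0 counts in each MeJA library, against 96, 30 and 42 in control 1 to 3. Its partner c62149_g2 had 0, against 43.5, 14 and 18. Control 1 held more than the sum of the other control libraries in both. The component as a whole, with 9 unigenes, had 6 counts in MeJA against 385 in control.

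The other pairs were weaker. Unigene c61623_g1 had 0 counts in each MeJA library, against 39, 24 and 25 in control 1 to 3, and c61623_g2 had 0, against 20, 12 and 10. Unigene c53534_g2 had 0 counts in each MeJA library, against 31, 12 and 16, and c53534_g1 had 0, against 16, 10 and 11. For c61523_g1 the MeJA libraries were at 0, against 26, 12 and 12 in control, and for c61523_g3 they were at 0, against 17, 15 and 14. Control 1 had the highest CPM in all of these except c61523_g3, where control 2 stood at 0.880 CPM against 0.838 in control 1. Fragments can be assigned to either unigene of a component, so the values of a pair are not independent, and each is uncertain by that much.

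The neighbours of a member are the unigenes that share its component and did not meet the rule themselves. Any that met it are members, so the rule limits which neighbours can be at 0 in MeJA. The shares below are given as a description, without a test. There were 45 such neighbours in 26 components. Of these, 22 were counted in control and at 0 in MeJA, 14 were counted in both groups, 5 were counted in MeJA only and 4 were at 0 in all 6 libraries. With 10 to 49 summed control counts, 12 of 18 neighbours were at 0 in MeJA, against 1246 of 13189 other unigenes at that level (9.45%). With 1 to 9 summed control counts, 10 of 13 neighbours were at 0 in MeJA, against 49.8% of the other unigenes. None of the 5 neighbours with at least 50 control counts was at 0 in MeJA, against 0.106% of the other unigenes. Members were left out on both sides, and most unigenes at 0 in MeJA with that many control counts are members. Nothing is therefore read from this class. Shared fragments tie a neighbour to its member, and their part in these counts was not tested.

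**Figure D5:**
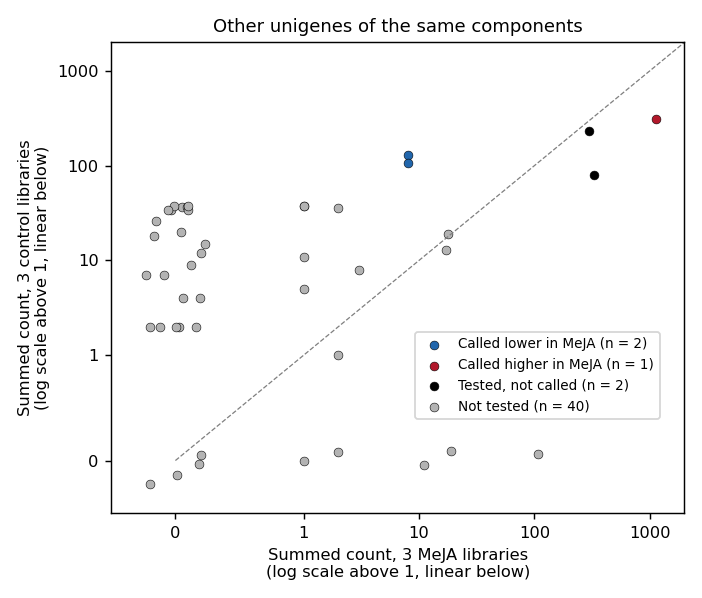
Summed counts of the 45 other unigenes in the members' components, over the 3 MeJA libraries (horizontal) and the 3 control libraries (vertical), both axes logarithmic above 1, with points at 0 spread slightly apart and the line of equal counts dashed. The 22 points along the left edge above 0 were counted in control and at 0 in MeJA, and 5 points along the lower edge were counted in MeJA only.

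The edgeR quasi-likelihood test had enough counts for 5 of the 45 neighbours, and called 2 lower and 1 higher in MeJA, beside the 12.8% and 14.3% of all tested unigenes. Unigene c60252_g2, of 839 bases, had 3, 5 and 0 counts in MeJA 1 to 3, against 60, 31 and 38 in control 1 to 3. All 3 control libraries lay above all 3 MeJA libraries, and the log2 fold change was -4.49 (SE 0.84, edgeR adjusted p = 0.00500). The member of this component, c60252_g1, had 0 counts in each MeJA library, against 46, 25 and 21 in control. Unigene c61523_g2, the neighbour of the pair c61523_g1 and c61523_g3, had 5, 3 and 0 counts in MeJA, against 54, 23 and 31 in control. Its groups did not overlap, and the log2 fold change was -4.19 (SE 0.86, edgeR adjusted p = 0.00717). Both neighbours were at 0 in MeJA 3.

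Unigene c61912_g5 differed from its member in direction. It had 384, 441 and 317 counts in MeJA 1 to 3, against 138, 76 and 99 in control 1 to 3, or 19.6 ± 3.48 CPM in MeJA and 5.28 ± 1.32 CPM in control (SD, n = 3 each). The log2 fold change was 1.33 (SE 0.35, edgeR adjusted p = 0.0193), and the groups did not overlap. The call was lost without MeJA 1 (adjusted p = 0.0679), without control 2 (0.0604) and without control 3 (0.0627). The member c61912_g8, of 184 bases, had 0 counts in each MeJA library, against 34, 19 and 20.02 in control. The component, with 9 unigenes, had 1598 counts in MeJA against 509 in control. The absence of c61912_g8 from MeJA was thus not shared by the whole component. Unigenes c61912_g2, c61912_g9 and c61912_g7 were also at 0 in MeJA, with 17.98, 9 and 2 summed control counts.

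The other 2 tested neighbours were not called. Unigene c61912_g1 had 119, 96 and 115 counts in MeJA, against 18, 4 and 58 in control, a log2 fold change of 1.59 (edgeR adjusted p = 0.134). Its groups did not overlap, but the control libraries were far apart, and with the replicate number as a block it was called by edgeR (adjusted p = 0.0360). It was also called with total counts (0.0488), by limma on log2(FPKM + 1) (0.0233) and without control 3 (0.0269). Unigene c54588_g2 had 102, 91 and 102 counts in MeJA, against 115, 30 and 85 in control, a log2 fold change of -0.10 (edgeR adjusted p = 0.891). The sign turned with total counts in place of TMM (0.42), with limma on log2(FPKM + 1) (0.35), without MeJA 2 (0.03) and without control 1 (0.21). Its member c54588_g1 had 0 counts in each MeJA library, against 92, 51 and 59 in control.

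The 5 neighbours counted in MeJA only rested mainly on MeJA 3. Unigene c61912_g6 had 0, 0 and 107 counts in MeJA 1 to 3, against 0 in each control library. Unigene c58556_g1 had 0, 2 and 17 counts in MeJA, against 0 in control, and c60089_g3 had 0, 0 and 11, against 0. The remaining neighbours of this kind had at most 2 counts in MeJA 3. No such neighbour was counted in MeJA 1.

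The identifiers of the members were also unevenly placed in the assembly. A component number from 50000 to 62999 was carried by 105 members (73.9%), against 55.4% of the other unigenes with at least 10 counts in each control library and 17.4% of all unigenes. The MeJA-only unigenes had such a number in 36.2% of cases. What orders the numbers is not given in the sources used here.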

How the data were processed

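RNA-Seq libraries of suspended licorice cells, 3 titled MeJA and 3 titled control, were analysed from their deposited tables. The authors isolated poly-A RNA, had it sequenced (Illumina), built the unigenes de novo from the reads and quantified them with RSEM. CASAVA and RSEM are named in the submitters' processing notes. Their versions, the assembler and the aligner were not given in the sources used here. Deposited by the authors were the expected count of each unigene and library, as estimated by RSEM and not normalized, and the FPKM computed from this count and the effective length. Replicates were not pooled, and every column used matched a sample (0 unmatched).

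The members and all lists were chosen with earlier results of these data known. CPM was the deposited expected count over the file total. Length was the count over FPKM and total, as the median of the libraries of either group with at least 10 counts and 0.3 FPKM. For the members these are control libraries only. Expected counts were rounded, and edgeR 4.0.16 under R 4.3.3 tested them (TMM, filterByExpr at 10 counts and a total of 15, quasi-likelihood F-test by glmQLFit and glmQLFTest, two-sided, no covariate), adjusted over all tested unigenes by Benjamini-Hochberg at a threshold of 0.05. SE is the absolute log2 fold change over the square root of F. The fits were tested on simulated data. DESeq2 1.42.0 and limma 3.58.1 on log2(FPKM + 1) were alternatives, beside other scalings, filters, minimum counts, thinning and each library left out. Python 3.11.15 was used with scipy 1.17.1, pandas 2.3.3, numpy 2.4.6 and matplotlib 3.10.9.

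The sequenced reads of each library name, listed in supplementary material of the study, entered only the ratio of library totals to reads. Totals of 17041505 to 21670945 counts set the precision. No replicates were duplicates of each other (chi-square per degree of freedom at least 84.1). Deviations from the group means correlated across unigenes at 0.253, 0.277 and 0.299 between libraries with the same number, and at -0.388 to 0.126 between others, so the numbers met the criterion for pairing (every same-numbered correlation above 0.1). The fit reported has no pairing, and the replicate block is an alternative. The pairing comes from this check, as the labels do not state it.

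Named members were the 8 strongest, the 4 longest, the 2 shortest, the 3 with the lowest and the 3 with the highest CV, the 2 with the lowest summed count, members sharing a component and those with a called neighbour. Outside the rule, 2 unigenes just under 10 counts and 3 with a single MeJA count were named.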

Additional observations from a re-analysis of the deposited data

How the results depend on the processing

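The number of control-only unigenes was 142, and 379 with a minimum of 5 counts, 52 with 20 counts, 320 with up to 3 summed MeJA counts allowed and 2203 by FPKM (at least 0.3 in each control library and 0 in MeJA). Counts summed per component gave 133 components, and thinning to the smallest library gave 132, of which 129 were members. Leaving out a library gave 156 to 231 unigenes, with 231 without control 2. Without MeJA 3, 156 were control-only and 181 MeJA-only. The median fold bound of 23.1 was 33.9 with TMM sizes, and 19.9 to 25.1 without a control library. The median length of 546 bases was 560 from libraries with at least 20 counts. The median CV of 30.1% was 11.7% to 31.0% without a control library, with 11.7% without control 1. The 2 neighbours called lower became 17 without a filter on low counts, where 41 neighbours were tested in place of 5. With a library left out this count was 2 to 11, with 11 without MeJA 1, MeJA 2 or MeJA 3, 6 without control 2 and 7 without control 3, where 10 to 15 neighbours were tested. The neighbour called higher became 2 with total counts, 2 with limma, 2 with the replicate block and 3 without a filter, and 0 at an adjusted p threshold of 0.01. With a library left out it was 0 to 1, with 0 without MeJA 1 and without control 2. The replicate block changed no other count, with 2 neighbours and 136 members called lower. Members called lower numbered 135 to 142 under all 14 alternatives. Total counts in place of TMM shifted the median over all tested unigenes to a log2 fold change of 0.56, against -0.01, and 77.0% of calls were then higher in MeJA, against 52.7%. The alternatives that leave out a control library for the fold bound and the CV were chosen after seeing the data. Depth limits the members most in control 2, where 37 had 10 to 12 counts.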

Other observations

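The 47 MeJA-only unigenes also had a leading library. MeJA 1 was highest in 35 of them (74.5%), with median shares of 47.3%, 21.8% and 23.4% of the summed MeJA CPM in MeJA 1 to 3, against 46.5% highest in MeJA 1 among the other unigenes with at least 10 counts in each MeJA library. Their median CV over the MeJA libraries was 51.2%, against 32.2% in those others. Replicate 1 was thus the highest library of most unigenes counted in a single group, in either group, and the difference from the other unigenes was not tested. Without any count minimum, 2969 unigenes were counted at least once in every control library and at 0 in every MeJA library, against 1414 counted at least once in every MeJA library and at 0 in every control library.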
